A study of Homo sapiens with 6 samples.

Results

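Protein arginine methyltransferases (PRMTs) and the proteins that work with PRMT5 were followed at the level of their transcripts in NCI-H460 cells in which PRMT5 was knocked down. The set held 10 genes of the 58825 in the files, chosen by name: PRMT5, its cofactors WDR77 and CLNS1A, and the methyltransferase genes PRMT1, PRMT2, PRMT3, CARM1, PRMT6, PRMT7 and PRMT9. All 10 had enough counts to be tested. The question was whether any of the other 9 genes rose when PRMT5 was lowered.

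PRMTs move methyl groups from S-adenosylmethionine to the nitrogen atoms of arginine side chains. Type I enzymes make asymmetric dimethylarginine, type II enzymes make symmetric dimethylarginine, and type III enzymes stop at monomethylarginine. PRMT5, the main type II enzyme, is active as a complex with WDR77, a WD-repeat protein, and the adaptor CLNS1A (also called pICln) brings it the Sm proteins of the spliceosome. This assembly is known as the methylosome.

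NCI-H460 is an established human lung cancer cell line, which the labels call an adenocarcinoma line and which is usually described as a large cell carcinoma. Both groups were infected with lentivirus. The 3 NC-shRNA libraries came from cells with a control hairpin, which the labels give as directed against GFP, and the 3 PRMT5-shRNA libraries from cells with a hairpin against PRMT5. Stable knockdown cells had been selected with puromycin, according to the methods. The labels do not say which hairpin against PRMT5 the libraries carried. Hairpin and PRMT5 level differed together between the groups, so an effect of the hairpin itself and one of lower PRMT5 cannot be told apart. The study describes the libraries as biological replicates, but the labels do not describe separate cultures, so p-values measure the spread between these libraries.

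Total counts ranged from 53531257 to 70518401 per library. The keratins KRT8, KRT18, KRT19 and KRT7 lay between 33.7 and 164 FPKM (fragments per kilobase of transcript, scaled to library size) in all 6 libraries, while the epithelial genes EPCAM and CDH1 did not exceed 0.52 FPKM and the lung lineage genes NKX2-1, SFTPB, SFTPC, NAPSA and SCGB1A1 did not exceed 0.23 FPKM. The 6 epithelial genes summed to 344 to 361 FPKM in NC-shRNA and 318 to 329 FPKM in PRMT5-shRNA libraries, lower in each knockdown library. KRT8 and KRT18 made up most of this sum, with NC-shRNA and PRMT5-shRNA means of 110 and 98.0 FPKM and of 151 and 135 FPKM. EPCAM was also lower (0.50 and 0.41 FPKM). The means of KRT19 (36.5 and 36.7 FPKM), KRT7 (51.6 and 52.8 FPKM) and CDH1 (0.14 and 0.20 FPKM) were slightly higher after knockdown. Summed over 6 endothelial markers the level was 1.85 to 1.98 FPKM in NC-shRNA and 2.32 to 2.84 FPKM in PRMT5-shRNA libraries, and over 6 blood cell markers 1.15 to 1.28 and 1.62 to 2.57 FPKM. In all 3 PRMT5-shRNA libraries 2 endothelial and 2 blood cell genes lay above the controls, as did 11% of all tested genes. Every endothelial and blood cell marker except CD3E, at 0 throughout, had a higher mean in PRMT5-shRNA than in NC-shRNA libraries. The NC-shRNA and PRMT5-shRNA means were 0.02 and 0.19 FPKM for PECAM1 and 1.38 and 1.78 FPKM for CDH5. They were 0.25 and 0.64 FPKM for LAPTM5 and 0.76 and 1.15 FPKM for CD14. TIE1, EMCN, PTPRC and HBB had a mean of 0 in NC-shRNA and at most 0.04 FPKM in any library. VWF, an endothelial gene outside these lists, was picked after its value was seen. At a low level, it was higher after knockdown in edgeR's quasi-likelihood test (log2 fold change 9.98, adjusted p = 0.034). The sums over 6 fibroblast markers (10.3 to 11.4 FPKM in NC-shRNA, 10.2 to 12.4 FPKM in PRMT5-shRNA libraries) overlapped, although 2 of these genes were higher in each knockdown library, and 4 neuroendocrine markers summed to 0.62 to 0.75 and 0.55 to 0.61 FPKM. The part of these genes in the results below was not tested.

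PRMT5 (ENSG00000100462) is transcribed from the minus strand of chromosome 14 (GRCh38, 22920511 to 22929585). It had 35.7, 32.5 and 33.5 FPKM in NC-shRNA replicates 1, 2 and 3, and 12.2, 12.0 and 10.2 FPKM in PRMT5-shRNA replicates 1, 2 and 3. Every knockdown library was below every control library. In bulk RNA, fewer cells with PRMT5 transcript and less of it per cell cannot be told apart. In edgeR's quasi-likelihood test PRMT5 transcript fell to 32.6% of the NC-shRNA level (95% interval 27.9% to 38.0%), a log2 fold change of -1.62 (standard error, SE, 0.094, adjusted p = 0.0063). The exact two-sided permutation test gave p = 0.10, the smallest that 3 libraries against 3 allow. With the replicate number as a block the log2 fold change was the same, -1.62, but the adjusted p was 0.14.

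The antisense gene PRMT5-AS1 overlaps PRMT5 on the other strand and had 28, 55 and 35 counts in NC-shRNA and 14, 37 and 22 in PRMT5-shRNA libraries. Its groups overlapped, and its log2 fold change was -0.60 (SE 0.44, adjusted p = 0.62 in edgeR). The libraries were made with a stranded mRNA kit, according to the methods. Whether the counting step made use of the strand is not given in the sources used here, so reads of PRMT5 and PRMT5-AS1 may not be told apart. The processed pseudogene PRMT5P1 had 0 counts in every library. PRMT1P1, the pseudogene of PRMT1, had at most 10 counts.

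None of the other 9 genes passed the test as higher in PRMT5-shRNA cells. In edgeR's quasi-likelihood test 0 of them passed an adjusted p of 0.05 in either direction, where 14 of all 20295 tested genes passed (0.069%, with 0.0493% higher and 0.0197% lower). At an unadjusted p under 0.05, 0 of the 9 were higher and 2 were lower, PRMT3 and CLNS1A, and with 1 library left out 1 to 3 were lower. Over all tested genes 12.8% passed by that rule, 6.54% higher and 6.29% lower. DESeq2 called 0 of the 9 higher and 1 lower, PRMT3, where it called 1.81% of its tested genes higher and 1.36% lower. Of the 9 fitted log2 fold changes, 2 were above 0 and 7 below, with a median of -0.10, where over all tested genes 10385 were above and 9910 below and the median was 0.0075. The groups did not overlap for 2 of the 9, both lower in PRMT5-shRNA cells, where 10.7% of all tested genes did not overlap in that direction and 11% in the other.

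**Figure D1:**
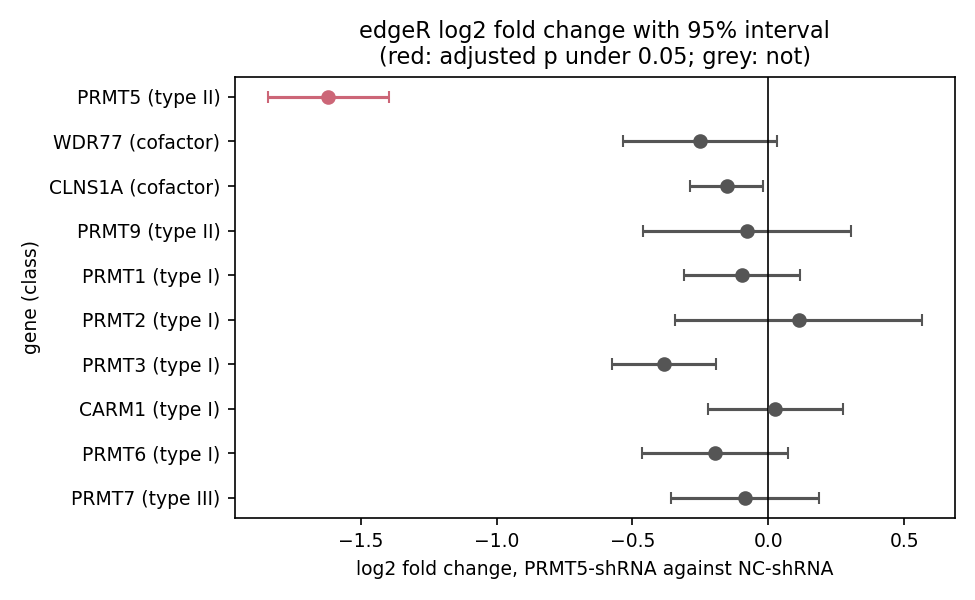
The log2 fold change of each of the 10 genes between PRMT5-shRNA and NC-shRNA cells (horizontal axis, edgeR) is drawn with its 95% interval, with the class of each protein in brackets. PRMT5 at -1.62 stands apart from the others, which lie between -0.38 and 0.11.

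Of the cofactors, WDR77 (ENSG00000116455, chromosome 1, 111439890 to 111449376, minus strand) had 28.8, 26.9 and 23.6 FPKM in NC-shRNA replicates 1 to 3 and 25.5, 23.8 and 20.4 FPKM in PRMT5-shRNA replicates 1 to 3. The groups overlapped, since PRMT5-shRNA replicates 1 and 2 were above NC-shRNA replicate 3. Its log2 fold change was -0.25 (SE 0.12, adjusted p = 0.43 in edgeR), and the 95% interval reached from 69.1% to 102% of the control level. Single libraries moved this value: it was -0.34 without NC-shRNA replicate 3 (upper bound 95.6%, with an unadjusted p of 0.024 in edgeR), -0.32 without PRMT5-shRNA replicate 1 (unadjusted p of 0.0498 in edgeR), -0.17 without NC-shRNA replicate 1 (upper bound 109%) and -0.16 without PRMT5-shRNA replicate 3 (upper bound 109%). With the replicate number as a block the unadjusted p was 0.0090 in edgeR, and the smallest adjusted p of WDR77 over all fits was 0.32. WDR77 overlaps the gene AL390195.1 on its own strand, so counting could divide reads between them.

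CLNS1A (ENSG00000074201, chromosome 11, 77514936 to 77637805, minus strand) varied little within a group. Scaled to CPM (counts relative to the library size, by edgeR's TMM method), it had 145, 145 and 139 CPM in NC-shRNA and 124, 134 and 127 CPM in PRMT5-shRNA libraries, so every knockdown library was below every control. Its log2 fold change was -0.15 (SE 0.057), with an unadjusted p of 0.032 and an adjusted p of 0.34 in edgeR. The 95% interval was 81.9% to 98.8% of the control level. The unadjusted p rose above 0.05 in edgeR when NC-shRNA replicate 1 (0.056), NC-shRNA replicate 2 (0.092), PRMT5-shRNA replicate 1 (0.11) or PRMT5-shRNA replicate 3 (0.077) was left out, with upper bounds of 100.4% to 103%. It also did so in the 3 limma fits on FPKM (0.074 to 0.11) and in edgeR's likelihood ratio test (0.17).

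Since PRMT5 was lower by far more than its cofactors, the proportion between their transcripts shifted. The ratio of WDR77 to PRMT5 FPKM was 0.81, 0.83 and 0.71 in the 3 control libraries and 2.09, 1.97 and 1.99 in the 3 knockdown libraries, a 2.59-fold higher mean. The ratio of CLNS1A to PRMT5 was 0.72, 0.82 and 0.77 in NC-shRNA and 1.94, 2.10 and 2.38 in PRMT5-shRNA libraries, a 2.78-fold higher mean. For both ratios the groups lay apart. The lower PRMT5 in the denominator sets this direction, so the ratios are a description and carry no further evidence on the cofactors. The ratio of WDR77 to CLNS1A was 1.02 ± 0.10 (SD, n = 3) in the controls and 0.95 ± 0.12 (SD, n = 3) after knockdown, and its groups overlapped.

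**Figure D2:**
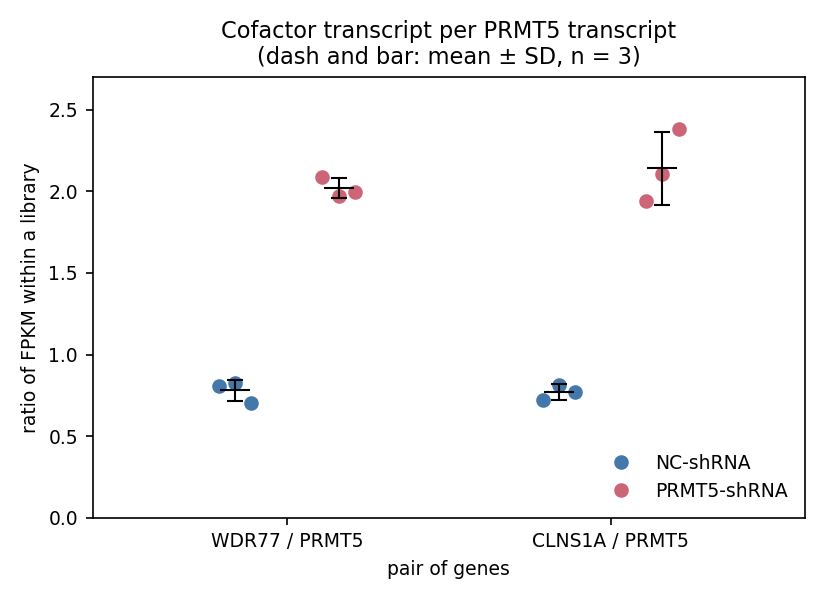
The ratio of cofactor FPKM to PRMT5 FPKM within each library (vertical axis) is shown for WDR77 and CLNS1A, with 1 point per library and the mean ± SD of each group. All NC-shRNA points lie between 0.71 and 0.83 and all PRMT5-shRNA points between 1.94 and 2.38.

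Of the type I enzymes, PRMT1 (ENSG00000126457, chromosome 19, 49675786 to 49689029, plus strand), the enzyme that makes most asymmetric dimethylarginine in cells, was the most abundant. It had 29.9, 25.9 and 25.8 FPKM in NC-shRNA and 28.3, 25.4 and 26.0 FPKM in PRMT5-shRNA libraries, and the groups overlapped. Its log2 fold change was -0.10 (SE 0.090, adjusted p = 0.70 in edgeR). The 95% interval of 80.7% to 108% left room for a rise of 8.44%, and the upper bound moved to 114% without PRMT5-shRNA replicate 2 or without replicate 3 and to 111% without NC-shRNA replicate 1. PRMT1 shares its strand with ADM5 and MIR5088, so some reads may belong to these.

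PRMT3 (ENSG00000185238, chromosome 11, 20387530 to 20509294, plus strand), a cytoplasmic type I enzyme that methylates the ribosomal protein RPS2, showed the largest difference of the 9. It had 49.2, 50.3 and 49.3 CPM in NC-shRNA and 34.5, 40.5 and 39.1 CPM in PRMT5-shRNA libraries, so each knockdown library was lower than each control library. The log2 fold change was -0.38 (SE 0.081), or 76.6% of the control level (95% interval 67.1% to 87.5%). In edgeR its unadjusted p was 0.0021 and its adjusted p 0.19, so it did not pass. DESeq2 gave -0.39 with an adjusted p of 0.0089, and over all alternatives the adjusted p of PRMT3 ran from 0.0089 to 0.43. PRMT3 overlaps no other annotated gene.

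CARM1 (ENSG00000142453), a coactivator that methylates histone H3 and splicing factors, had 11.4, 12.2 and 11.7 FPKM in NC-shRNA and 14.5, 11.5 and 11.5 FPKM in PRMT5-shRNA libraries. Only PRMT5-shRNA replicate 1 was above the controls. The log2 fold change was 0.026 (SE 0.10, adjusted p = 0.94 in edgeR), with a 95% interval of 85.7% to 121%, and -0.10 without that library.

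PRMT6 (ENSG00000198890), a nuclear enzyme that methylates histone H3, had 5.28, 6.06 and 5.23 FPKM in NC-shRNA and 5.64, 4.90 and 4.54 FPKM in PRMT5-shRNA libraries. PRMT5-shRNA replicate 1 lay among the controls and the other two below them. Its log2 fold change was -0.20 (SE 0.11, adjusted p = 0.52 in edgeR), with an interval of 72.4% to 105% of the control level. Without PRMT5-shRNA replicate 1 it was -0.29 (unadjusted p of 0.0492 in edgeR), and without NC-shRNA replicate 2 or PRMT5-shRNA replicate 3 it was -0.13 in each case, with upper bounds of 113% and 112%.

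PRMT2 (ENSG00000160310), a weakly active type I enzyme, was the most variable of the 10 genes, with a coefficient of variation of 18.6% over the controls and 21.9% over the knockdown libraries. It had 3.22, 2.78 and 4.11 FPKM in NC-shRNA and 3.57, 4.68 and 3.11 FPKM in PRMT5-shRNA libraries. High and low libraries occurred in both groups. Its log2 fold change of 0.11 (SE 0.19, adjusted p = 0.84 in edgeR) became -0.075 without PRMT5-shRNA replicate 2 and -0.0095 without NC-shRNA replicate 2. The interval, 78.9% to 148%, was the widest of the set, so a rise by up to 48.0% could not be told from no change.

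PRMT9 (ENSG00000164169), the other type II enzyme, which methylates the splicing factor SF3B2, was the least abundant of the 10. It had 1.49, 1.87 and 2.07 FPKM in NC-shRNA and 1.89, 1.50 and 1.96 FPKM in PRMT5-shRNA libraries, from 468 to 612 counts. The groups overlapped throughout. The log2 fold change was -0.077 (SE 0.16, adjusted p = 0.88 in edgeR), with an interval of 72.7% to 124%, and it was 0.012 without NC-shRNA replicate 3 and 0.028 without PRMT5-shRNA replicate 2.

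PRMT7 (ENSG00000132600), the type III enzyme, had 5.99, 4.54 and 5.32 FPKM in NC-shRNA and 5.44, 5.18 and 4.98 FPKM in PRMT5-shRNA libraries, so the knockdown libraries lay within the range of the controls. The log2 fold change was -0.085 (SE 0.11, adjusted p = 0.80 in edgeR), with an interval of 78.1% to 114%, and 0.034 without NC-shRNA replicate 1, its highest library. PRMT7 overlaps AC020978.1 on its own strand.

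**Figure D3:**
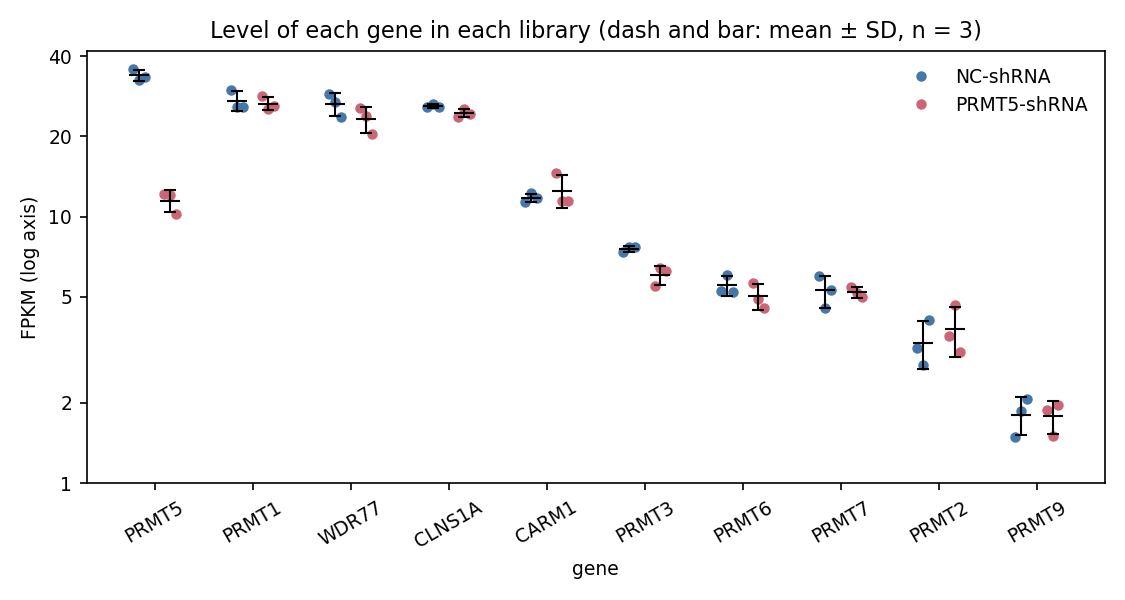
FPKM of the 10 genes (vertical log axis) is plotted for each library, in order of the NC-shRNA mean, with the mean ± SD of each group. PRMT5 moved from 33.9 to 11.5 FPKM, and among the other genes the points of PRMT3 and CLNS1A alone did not overlap between the groups.

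Per length, PRMT5 was the most abundant of the 10 transcripts in NC-shRNA cells, at 33.9 ± 1.66 FPKM (SD, n = 3), above every library of the next gene, PRMT1. PRMT1, WDR77 and CLNS1A followed at 27.2, 26.5 and 26.0 FPKM and did not differ beyond their spread. CARM1 at 11.8 and PRMT3 at 7.58 FPKM were each apart from their neighbours, PRMT6 and PRMT7 overlapped at 5.52 and 5.28 FPKM, and PRMT2 and PRMT9 came last at 3.37 and 1.81 FPKM. In PRMT5-shRNA cells PRMT5, at 11.5 ± 1.09 FPKM (SD, n = 3), ranked 5 of 10, overlapping with CARM1 at 12.5 FPKM, and PRMT1 ranked first at 26.6 FPKM.

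Summed over the 8 methyltransferase genes, the level was 100.4, 93.6 and 95.4 FPKM in NC-shRNA and 77.0, 71.6 and 68.5 FPKM in PRMT5-shRNA libraries. Without PRMT5 the sum of the other 7 was 64.6, 61.0 and 61.9 FPKM in NC-shRNA and 64.9, 59.6 and 58.3 FPKM in PRMT5-shRNA libraries, so the groups overlapped. The sum over the 5 type I genes also overlapped, at 55.4 ± 1.49 against 53.9 ± 3.22 FPKM (SD, n = 3 each). PRMT5 made up 35.1% of the 8-gene sum in the controls and 15.9% after knockdown, and PRMT1 made up 28.2% and 36.7%. These sums describe transcripts and not enzyme activity. FPKM values were used without TMM scaling. Every member had a higher log2 fold change in limma on log2(FPKM + 0.1) than in edgeR on counts. Examples are -0.032 against -0.096 for PRMT1 and 0.077 against 0.026 for CARM1. FPKM levels after knockdown thus read slightly higher, relative to the controls, than the edgeR values.

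**Figure D4:**
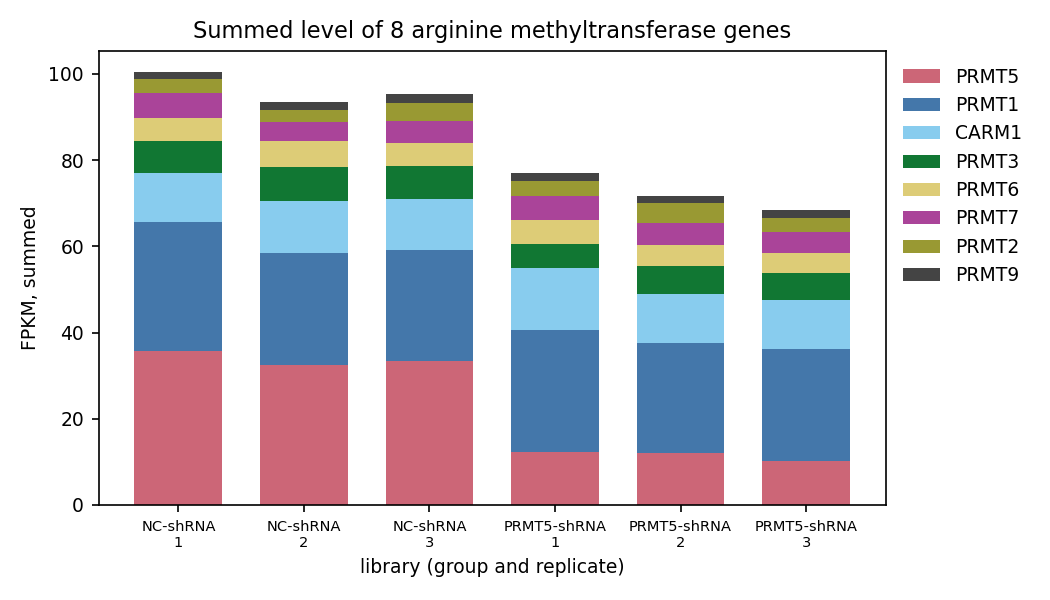
Stacked bars give the FPKM of the 8 methyltransferase genes in each of the 6 libraries. The total was 96.4 FPKM on average in NC-shRNA and 72.4 FPKM in PRMT5-shRNA libraries, and the part above the PRMT5 segment was 62.5 and 60.9 FPKM.

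Around the enzymes, 17 further genes of the pathway were listed: an additional methyltransferase, adaptors, regulators, readers and the enzymes of the methyl donor cycle. In the files all 17 were found and 16 had enough counts to be tested. None passed an adjusted p of 0.05 in edgeR, 1 was higher and 2 were lower at an unadjusted p under 0.05, and the median log2 fold change was -0.080. Of all tested genes 6.54% were higher and 6.29% lower by that rule, with a median of 0.0075. Of the 16 log2 fold changes, 4 were above 0 and 12 below, where over all tested genes 10385 were above and 9910 below. The groups did not overlap for 1 of the 16 that was higher and 4 that were lower. Of all tested genes, 11% did not overlap in the higher direction and 10.7% in the lower. PRMT8, known as a brain enzyme, had 0 counts in 5 libraries and 4 counts in PRMT5-shRNA replicate 2.

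EPB41L3, a membrane skeleton protein that binds PRMT3 and inhibits it, had 347, 418 and 426 CPM in NC-shRNA and 488, 461 and 482 CPM in PRMT5-shRNA libraries. The knockdown libraries were all above the controls, with a log2 fold change of 0.26 (SE 0.086, with an unadjusted p of 0.018 and an adjusted p of 0.30 in edgeR). JMJD6, a dioxygenase described as an arginine demethylase, had 70.4, 66.5 and 56.2 CPM in NC-shRNA and 56.0, 53.2 and 55.6 CPM in PRMT5-shRNA libraries, a log2 fold change of -0.23 (SE 0.094, adjusted p = 0.38 in edgeR).

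SPIN1, a reader of methylated histone H3, was split by library and not only by group. It had 28.3 CPM in NC-shRNA replicate 1, against 116 and 126 CPM in replicates 2 and 3, and 39.9, 34.7 and 31.3 CPM in the PRMT5-shRNA libraries. Its log2 fold change of -1.35 (SE 0.50, with an unadjusted p of 0.030 and an adjusted p of 0.33 in edgeR) thus rested on 2 control libraries.

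Other PRMT5 adaptors had narrow to moderate intervals around the control level. RIOK1, which binds PRMT5 at the same site as CLNS1A, had a log2 fold change of -0.046 (95% interval 87.5% to 107% of control) and COPRS, which guides PRMT5 to histones, of -0.14 (72.8% to 113%). In the methyl donor cycle, MAT2A, which makes S-adenosylmethionine, differed by 0.073 (96.8% to 114%), and AHCY, which clears its product, by -0.12 (84.5% to 101%). None of these 4 genes passed an unadjusted p of 0.05 in edgeR. AHCY, with an unadjusted p of 0.071 in edgeR, was lower in each knockdown library than in each control library. MTAP, which removes methylthioadenosine, an inhibitor of PRMT5, had 67.9 CPM in NC-shRNA replicate 1 and 23.9 to 29.3 CPM in the other libraries of both groups, with a log2 fold change of -0.53 (SE 0.39, adjusted p = 0.61 in edgeR).

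Of 20 genes whose proteins PRMT5 is known to methylate, all were tested and none passed an adjusted p of 0.05 in edgeR, with a median log2 fold change of -0.056. At an unadjusted p under 0.05, KLF4, a transcription factor, was higher (log2 fold change 0.21) and HNRNPA1 (-0.22), SUPT5H (-0.14) and FEN1 (-0.21) were lower, so 1 of 20 was higher and 3 were lower, where over all tested genes 6.54% were higher and 6.29% lower and the median was 0.0075. HNRNPA1, an RNA-binding protein of splicing, had the smallest adjusted p of the list (0.20), at 1265 ± 21.0 CPM (SD, n = 3) in the controls and 1085 ± 39.8 CPM (SD, n = 3) after knockdown. It has many processed pseudogenes, which could share its reads. The transcripts of the Sm proteins SNRPB, SNRPD1 and SNRPD3, the substrates that CLNS1A presents, differed by -0.14, -0.0072 and -0.12. Of the 20 log2 fold changes, 6 were above 0 and 14 below, where over all tested genes 10385 were above and 9910 below. The groups did not overlap for 2 of the 20 that were higher and 4 that were lower. Of all tested genes, 11% did not overlap in the higher direction and 10.7% in the lower.

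By Pearson correlation of log2 CPM over the 6 libraries, the genes most like PRMT5 among tested genes with a mean of at least 1 CPM were SYAP1 (0.998), RPL23P8 (0.996), PODXL2 (0.994), KIF26A (0.994) and SNHG29 (0.994). No member of the set was among these 5. The points share the knockdown, so the values mainly follow the 2 groups, and the changes were smaller than that of PRMT5, with log2 fold changes from -0.74 (RPL23P8) to -0.13 (SYAP1).

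**Figure D5:**
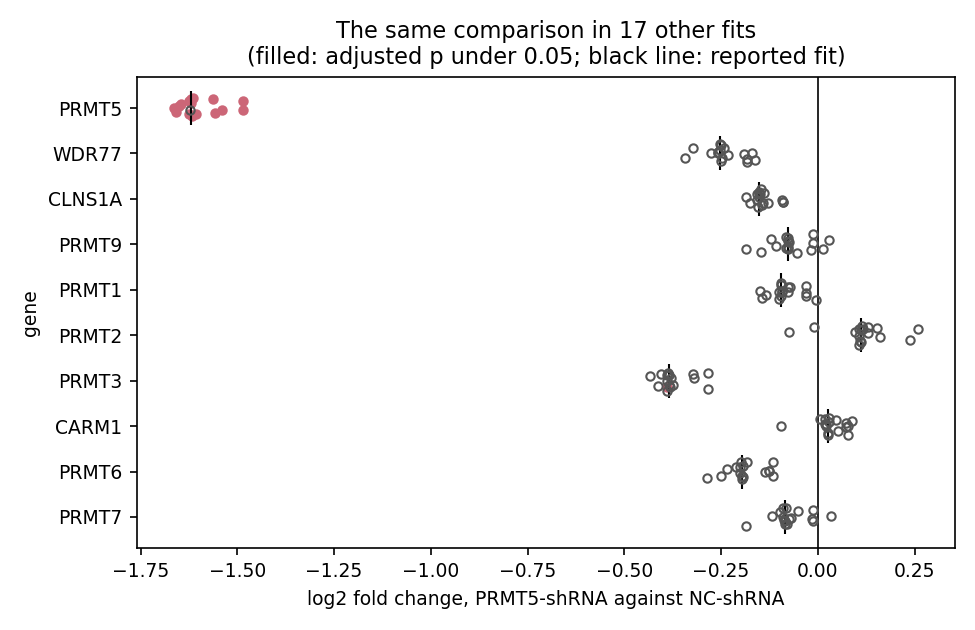
Each point is the log2 fold change of a gene (horizontal axis) in 1 of 17 other fits, and black lines mark the reported fit. PRMT5 lay between -1.66 and -1.49 in all of them, PRMT3 between -0.43 and -0.28 with 1 call (DESeq2), and no other gene was called.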

How the data were processed

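RNA-seq of 6 NCI-H460 libraries was analysed, 3 per group, assigned from the sample titles. According to the submitters' processing notes, the authors trimmed reads with cutadapt 1.9, mapped them with HISAT2 2.0.4 to GRCh38 and estimated expression with StringTie 1.3.4d. The methods write the reference as GRCm38. The deposited files hold estimated counts per gene without normalization and FPKM values, which the authors scaled for length and library size. The counting step is not given in the sources used here. The deposited estimated counts were whole, and rounding altered no value. On average 1283 genes had exactly 4 counts, against 517 with 3 and 301 with 5, so a count is not read as 1 fragment.

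Counts were scaled by TMM and filtered by filterByExpr (20295 of 58825 genes), and tested with edgeR 4.0.16's quasi-likelihood test in R 4.3.3 with Benjamini-Hochberg adjustment over all tested genes. Standard errors and 95% intervals were derived from the F statistic. Single values had exact two-sided permutation tests. Alternatives used DESeq2 1.42.0, and limma 3.58.1 on log2(FPKM + 1) or log2(FPKM + 0.1) with a minimum mean FPKM of 0.5. The fits were run on simulated counts with the same variability for every gene and with changes larger than those of the members other than PRMT5. That run checked the code and cannot show how well small differences are found in these data. Positions came from GENCODE release 29, which held 58552 of the 58825 identifiers.

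All 10 members are named. Of the other lists, genes with an unadjusted p under 0.05, or the 6 with the smallest p, and any at 0 in a whole group were to be named, and the 5 genes most correlated with PRMT5. RIOK1, COPRS, MAT2A, AHCY, MTAP and the Sm genes were added after their values were seen. The members and lists were chosen with earlier results of these data known. No libraries were duplicates: the chi-square per degree of freedom between pairs was at least 42.2.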

Additional observations from a re-analysis of the deposited data

How the results depend on the processing

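Of 17 alternatives, the likelihood ratio test, the length correction and the division of counts by 4 were chosen after seeing the data. PRMT5 stayed between -1.66 and -1.49 (log2 fold change) and past the threshold, except with the replicate block (-1.62, adjusted p 0.14). Its adjusted p ran from 3.18e-42 to 0.14. Around their group means, same-numbered libraries had correlations of 0.019, -0.032 and 0.019 across genes. These were not compared with libraries of unlike number, and single genes may differ from them. Whether the numbers pair libraries was thus not tested. None of the 9 other members was called higher in any alternative, and 1 was called lower, in DESeq2 (PRMT3). Against 10 higher and 4 lower among all genes, there were 303 and 227 with DESeq2, 119 and 65 with the likelihood ratio test, 1 higher with unfiltered limma on log2(FPKM + 1), and 0 and 0 with the replicate block (edgeR, with 1203 and 1179 at an unadjusted p under 0.05). The causes were not tested. With 1 library left out, 4 to 16 genes were higher and 3 to 10 lower: 5 higher without NC-shRNA replicate 2, 16 and 9 without NC-shRNA replicate 3, 4 higher without PRMT5-shRNA replicate 1, 5 and 10 without replicate 2 and 6 higher without replicate 3. Members that changed sign with 1 library left out were PRMT2 (-0.075 to 0.26), PRMT9 (-0.19 to 0.028), CARM1 (-0.096 to 0.088) and PRMT7 (-0.18 to 0.034). The upper bounds of the 95% intervals, with 1 library left out, reached 121% for PRMT7, 129% for CARM1, 137% for PRMT9 and 167% for PRMT2. The cofactor to PRMT5 ratios, whose direction the knockdown sets, ran over 7 alternatives each from 2.47-fold to 2.67-fold for WDR77 and from 2.63-fold to 2.91-fold for CLNS1A.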

Other observations

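Several members were high or low in the same libraries. NC-shRNA replicate 1 had the highest CPM of the 6 libraries for PRMT5 (143), WDR77 (94.5), PRMT1 (175) and PRMT7 (69.4). PRMT5-shRNA replicate 3 had the lowest for PRMT5 (38.3), WDR77 (62.2), CARM1 (58.1) and PRMT6 (22.4). These libraries were picked after their values were seen, and no test was made.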
